A study of Mus musculus with 24 samples.

Results

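The mRNAs of the translation elongation factors Eef1a1, Eef1b2, Eef1d, Eef1g and Eef2, with those of the poly(A)-binding protein Pabpc1 and the ribosomal scaffold Rack1, were followed in mouse Th1 effector CD4+ T cells during the first 4 h after restimulation. They belong to a list of 9 well-known 5′ terminal oligopyrimidine (TOP) mRNAs outside the ribosomal proteins, chosen by name and matched from Ensembl identifiers to symbols. Of the 9, 7 were among the 9420 genes of the table, and Tpt1 and Naca were not analysed here. The values are FPKM, fragment counts scaled by the length of the gene and by the size of the library. All 7 had at least 1 FPKM on average in each kind of library and entered every test.

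The cells came from DO11.10 mice, a strain with a transgenic T cell receptor, and the labels give no age. Restimulation was with plate-bound antibody to hamster immunoglobulin G together with soluble anti-CD3 at 1 µg/ml and anti-CD28 at 2.5 µg/ml, which stand in for antigen and costimulation. Among libraries prepared alike, the labels set groups apart by time after restimulation alone, so restimulation and elapsed time cannot be told apart. RNA made during a 1 h pulse of 200 µM 4-thiouridine (4sU RNA) was sequenced at 0, 1, 2, 3 and 4 h, total RNA at 0, 1, 2 and 4 h, and ribosome-protected fragments (RP) at 0, 0.5, 1, 2 and 4 h. A further pair of 4sU libraries, with a 0.5 h pulse of 500 µM, covered 0 and 0.5 h. The 24 libraries carry replicate numbers 1 and 2. There were 2 libraries at 0, 1 and 4 h of 4sU RNA and RP and at 0 and 4 h of total RNA, and 1 library at each other time, which was replicate 2 for total RNA at 1 h and replicate 1 otherwise. Outside the short-label pair, times with 1 library are thus set against 0 h groups that hold both replicate numbers.

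TOP mRNAs begin with a cytosine followed by an uninterrupted run of pyrimidines, and nearly all of them encode parts of the translation machinery. Their translation is known to depend on the kinase complex mTORC1, which is active in stimulated T cells, and the cap-binding protein Larp1 holds them in a stable but poorly translated state when mTORC1 is inactive. A resting lymphocyte therefore carries many of these mRNAs outside polysomes, which makes total RNA, new RNA and ribosome occupancy separate readouts for this class.

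Bases near the annotated 5′ ends of Rack1, Eef1a1 and Eef1b2 are printed because the tract that defines the class begins the mRNA. The lines of Eef1a1 and Eef1b2 start inside the transcript and not at its first base. Each line has 30 bases, 5′ to 3′ on the gene's own strand, from the first exon of the principal GENCODE M21 transcript on GRCm38. Capitals mark the longest run of a C followed by at least 4 bases that are C or T within the first 100 bases of the transcript, searched on the transcript strand.
Rack1, chr11:48800360-48800389, plus strand: CTTTTTCTCCacagggtcgtggtggcagcc
Eef1a1, chr9:78481650-78481679, minus strand: tggacgttCTTTTTCgcaacgggtttgccg
Eef1b2, chr1:63176872-63176901, plus strand: aactccggCTCCTCagagggcgtttccctt
The run of Rack1 has 10 bases and starts at base 1 of its transcript. The run of Eef1a1 has 7 bases and starts at base 54, and the run of Eef1b2 has 6 bases and starts at base 56. Such a run anywhere in the first 100 bases is common: it was present in 72.8% of the 7172 genes with a principal transcript and in 43 of 44 ribosomal protein genes (97.7%). An annotated start is not a measured cap site, so a run inside the transcript does not show where the mRNA begins in these cells. The other 4 genes are given by name.

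On GRCm38, Eef1a1 (ENSMUSG00000037742) lies on chromosome 9, 78478449 to 78489151, and Eef1b2 (ENSMUSG00000025967) on chromosome 1, 63176825 to 63180486. Eef1d (ENSMUSG00000055762) and Pabpc1 (ENSMUSG00000022283) are both on chromosome 15, at 75894205 to 75909556 and at 36595661 to 36609668. Eef1g (ENSMUSG00000071644) is on chromosome 19, 8967041 to 8978479, and Eef2 (ENSMUSG00000034994) on chromosome 10, 81176631 to 81182498. Rack1 (ENSMUSG00000020372) is on chromosome 11, 48800332 to 48806434. Exons were joined over all annotated transcripts of a gene, and not taken from the principal transcript alone. Those of Rack1, with 5119 bases of which 951 are coding, contain the small nucleolar RNA genes Snord95, Snord96a and Gm25296 on the same strand. On the same strand too, 277 exon bases of Eef1d overlap Naprt, 176 of Eef1b2 overlap Gm27390 and 108 of Eef1a1 overlap Gm26377, so reads there cannot be assigned with certainty. Genes such as Eef1a1 and Rack1 have processed pseudogene copies in mammalian genomes, and how reads that match several places were counted is not given in the sources used here.

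Depth could be read from the steps of the lowest FPKM values in 12 of the 24 libraries, at 8.89 to 26.2 M reads for RP and 4.87 to 16.1 M reads for the 4 others, and is unknown for the rest. All 7 markers fixed for Th1 and CD4 T cells were in the table, with Cd4 at 77.9 and 82.9 FPKM in the 4sU libraries at 0 h, while 0 of 5 macrophage markers were. The summed level of 6 CD8 T cell markers differed by replicate number, at 123 to 189 FPKM in replicate 1 and 49.7 to 74.4 FPKM in replicate 2 of 4sU RNA, 288 to 373 and 45.9 to 56.1 FPKM in total RNA, and 935 to 1180.0 and 203 to 240.0 FPKM in RP. The markers did not all differ alike. In 4sU RNA at 0 h, Gzma stood at 73.6 FPKM in replicate 1 and 0.66 FPKM in replicate 2. Cd8a stood at 17.1 and 5.21 FPKM, Cd8b1 at 36.5 and 8.99 FPKM and Gzmk at 3.98 and 0.70 FPKM. Klrk1 went the other way, at 27.9 and 37.1 FPKM, and Eomes stood at 1.50 and 1.59 FPKM. The 4 B cell markers moved with time in replicate 1, with a sum of 1.84 FPKM at 4 h against 17.3 FPKM at 0 h in 4sU RNA, and of 2.04 against 4.19 FPKM in replicate 2. In 4sU RNA of replicates 1 and 2, the NK cell marker Klrd1 stood at 2.19 and 1.57 FPKM at 4 h, against 14.96 and 9.47 FPKM at 0 h. The sum of 3 dendritic cell markers was 11.0 and 12.1 FPKM at 4 h, against 26.3 and 11.2 FPKM at 0 h. The sum of 3 Treg markers, of which Il2ra is also a gene of activated T cells, was 362 and 492 FPKM at 4 h, against 75.3 and 68.6 FPKM at 0 h. Nearly all of it was Il2ra, at 358 and 487 FPKM at 4 h, against 70.9 and 64.0 FPKM at 0 h. Foxp3 stood at 2.23 and 2.01 FPKM at 4 h, against 1.28 and 1.19 FPKM at 0 h. Ikzf2 was lower at 4 h, at 1.98 and 2.85 FPKM, against 3.11 and 3.42 FPKM at 0 h. The part of these cells in the changes given here was not tested, and in bulk RNA fewer cells of a type and less RNA per cell cannot be told apart. The labels do not say whether replicates were separate animals or cultures, and the p-values cover the spread among these libraries alone, which may be technical.

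At 4 h, ribosome-protected fragments of these mRNAs stood at 1.45- to 7.11-fold and newly made RNA at 2.25- to 4.70-fold of their 0 h levels within a replicate number, while total RNA stood at 0.67- to 1.49-fold. Against 0 h, 6 of the 7 were called higher in 4sU RNA, all but Eef1a1, and 6 of the 7 were called higher in RP, all but Eef1d. From here on, rose and fell are used for called changes. The threshold for a call was an adjusted p of 0.05 with limma on log2(FPKM + 1), adjusted over all genes tested. There 33.3% of 9278 genes were called in 4sU RNA (14.4% higher) and 25% of 9312 in RP (12.1% higher). Total RNA gave 0 of 7 calls with limma, where 13.5% of 9078 genes were called. With the replicate number as a block, which the libraries warranted because those of the same number deviated together, all 7 rose in 4sU RNA and all 7 in RP, and Eef2 fell in total RNA. In that fit 58.7% of genes were called in 4sU RNA (23.3% higher), 48% in RP (21.3% higher) and 39.9% in total RNA (23.3% lower). The median change of the 7 was 1.58 in 4sU RNA, 1.88 in RP and 0.12 in total RNA on the log2 scale, beside medians of -0.16, -0.10 and -0.10 over all genes tested. Median-of-ratios scaling, which brings those medians close to 0, turned the split of 1334 higher and 1755 lower genes in 4sU RNA into 1645 and 1374 and that of 587 and 637 in total RNA into 783 and 549. The calls among the 7 were then 6 in 4sU RNA, 7 in RP and 0 in total RNA.

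**Figure D1:**
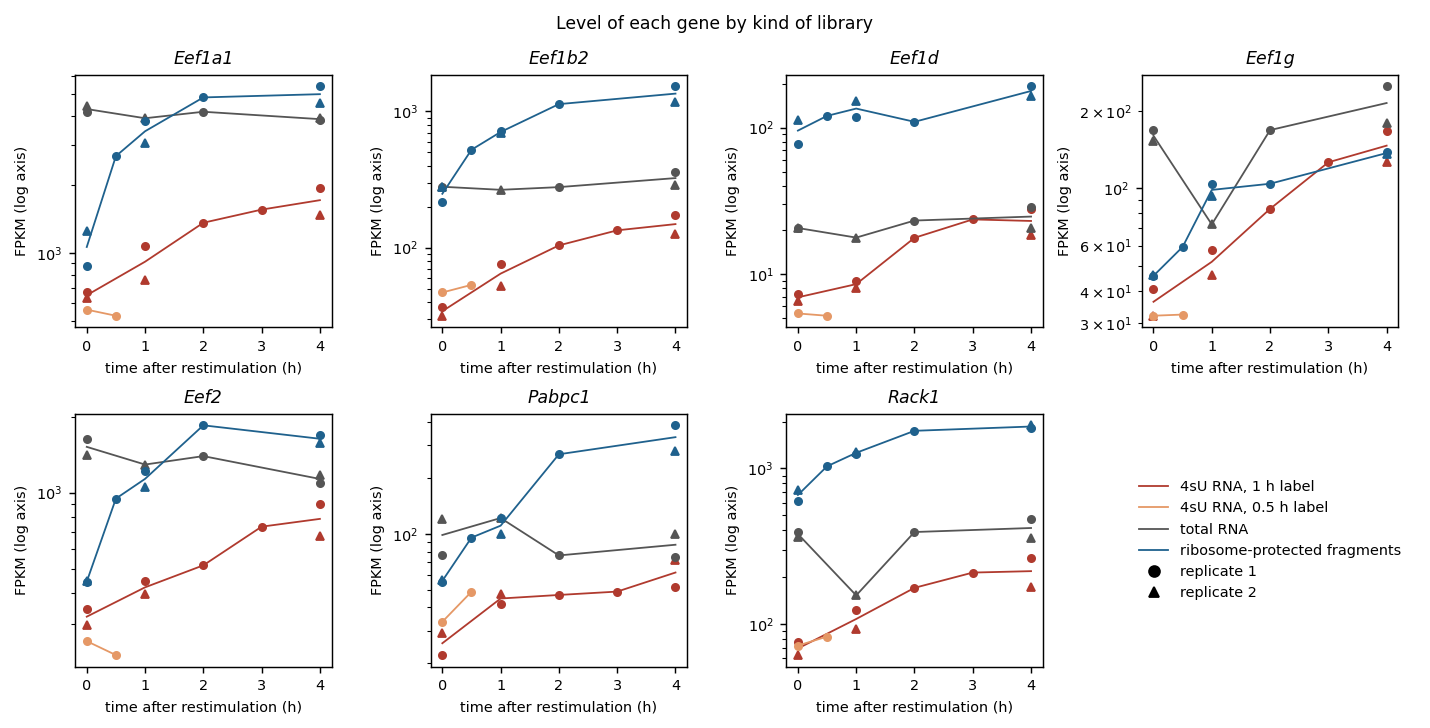
FPKM on a log axis by hours after restimulation for each of the 7 genes, with points for single libraries and lines through the mean at each time. In every panel the 4sU (1 h label) and RP lines are higher at 4 h than at 0 h. The total RNA line has its lowest point at 1 h, from 1 library, for Rack1, Eef1g, Eef1b2 and Eef1d, and the dip is deepest for Rack1 and Eef1g.

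Eef1a1 encodes the factor that brings aminoacyl-tRNA to the ribosome, and its mRNA was the most abundant in the table in total RNA at 0 h of both replicates, at rank 1 of 9420. Its total RNA stood at 4183 and 4434 FPKM at 0 h, 3925 at 1 h, 4192 at 2 h and 3852 and 3927 at 4 h. RP stood at 875 and 1253 FPKM at 0 h, 2673 at 0.5 h, 3830.2 and 3049 at 1 h, 4848 at 2 h and 5442 and 4578 at 4 h, and ranked 16 and 21 at 4 h, against 144 and 95 at 0 h. Every later RP library lay above both libraries of 0 h, whereas both total RNA libraries of 4 h lay below both of 0 h, a difference that was not called. The 4sU RNA stood at 673 and 631 FPKM at 0 h, 1072 and 760.3 at 1 h, 1360.1 at 2 h, 1554 at 3 h and 1943 and 1477 at 4 h, and all later values lay above both of 0 h, with replicate 1 above replicate 2 at 1 and 4 h. On the log2 scale the change at 4 h was 2.25 ± 0.33 SE (adjusted p = 0.00864) in RP, 1.38 ± 0.52 SE (adjusted p = 0.0848, 0.00915 with the replicate block) in 4sU RNA and -0.15 ± 0.30 SE (adjusted p = 0.774) in total RNA with limma. Without replicate 1 at 4 h, the RP call was lost (adjusted p = 0.057 with limma).

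The eEF1B complex recharges eEF1A with GTP, and Eef1b2, Eef1d and Eef1g encode its subunits. Eef1b2, a subunit with exchange activity, had the highest change of the 7 in 4sU RNA, ahead of Eef1g by less than the SE of either. Its 4sU RNA stood at 36.7 and 31.6 FPKM at 0 h, 76.5 and 52.5 at 1 h, 104 at 2 h, 134 at 3 h and 172 and 125 at 4 h. RP of Eef1b2 stood at 216 and 281 FPKM at 0 h, 523 at 0.5 h, 713 and 699 at 1 h, 1131 at 2 h and 1536 and 1166 at 4 h. In both kinds of library every later value lay above both values of 0 h. Its total RNA stood at 279 and 281 FPKM at 0 h, 266 at 1 h, 278 at 2 h and 358 and 289.9 at 4 h, where the libraries of 0 and 4 h did not overlap but lay close together. The change at 4 h was 2.08 ± 0.27 SE (adjusted p = 0.00426) in 4sU RNA, 2.44 ± 0.26 SE (adjusted p = 0.00518) in RP and 0.20 ± 0.26 SE (adjusted p = 0.631) in total RNA with limma.

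Eef1g, the structural subunit that joins the complex, had 4sU RNA at 40.6 and 32.1 FPKM at 0 h, 57.7 and 46.1 at 1 h, 83.3 at 2 h, 126 at 3 h and 167 and 127 at 4 h. Its RP stood at 45.6 and 46.0 FPKM at 0 h, 59.3 at 0.5 h, 104 and 93.1 at 1 h, 104 at 2 h and 139 and 136 at 4 h. All later values of both kinds again lay above both values of 0 h. Total RNA stood at 168 and 153 FPKM at 0 h, 72.5 at 1 h, 168 at 2 h and 249.8 and 179 at 4 h, with the 1 h library below every other and the 4 h libraries above both of 0 h. At 4 h the change was 1.98 ± 0.24 SE (adjusted p = 0.00375) in 4sU RNA, 1.56 ± 0.17 SE (adjusted p = 0.00526) in RP and 0.40 ± 0.27 SE (adjusted p = 0.351) in total RNA with limma.

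Eef1d, the other subunit with exchange activity, was the lowest of the 7 in 4sU and total RNA. Its 4sU RNA stood at 7.32 and 6.50 FPKM at 0 h, 8.97 and 8.04 at 1 h, 17.6 at 2 h, 23.6 at 3 h and 27.6 and 18.4 at 4 h, and at 4 h both libraries lay above those of 0 and 1 h. RP of Eef1d, with the lowest 4 h change of the 7, stood at 77.6 and 113 FPKM at 0 h, 120.3 at 0.5 h, 119 and 152 at 1 h, 109.6 at 2 h and 193 and 164 at 4 h, where the single 2 h value lay between those of 0 h and all other later values above them. Total RNA stood at 20.7 and 20.5 FPKM at 0 h, 17.7 at 1 h, 23.1 at 2 h and 28.8 and 20.5 at 4 h, with the 4 h library of replicate 2 inside the narrow 0 h pair and that of replicate 1 above it. Eef1d changed at 4 h by 1.58 ± 0.23 SE (adjusted p = 0.00534) in 4sU RNA, and its values were 0.91 ± 0.26 SE (adjusted p = 0.0501, 0.0127 with the replicate block) in RP and 0.23 ± 0.25 SE (adjusted p = 0.564) in total RNA with limma. The RP change of Eef1d was also called with median-of-ratios scaling (1.00, adjusted p = 0.0437 with limma) and with a pseudocount of 5 (0.88, adjusted p = 0.0495).

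Eef2 encodes the factor that moves the ribosome along the mRNA after each peptide bond. Its RP stood at 442 and 446 FPKM at 0 h, 947 at 0.5 h, 1215 and 1054 at 1 h, 1850.0 at 2 h and 1693 and 1579 at 4 h, with close replicates at 0 h and every later value above them. The 4sU RNA stood at 346 and 299 FPKM at 0 h, 446 and 396 at 1 h, 515 at 2 h, 733 at 3 h and 903 and 671 at 4 h, so the later libraries again lay above both of 0 h. Total RNA stood at 1634 and 1405 FPKM at 0 h, 1293 at 1 h, 1396 at 2 h and 1094 and 1172 at 4 h, with both 4 h libraries below both of 0 h. The change at 4 h was 1.88 ± 0.23 SE (adjusted p = 0.00626) in RP, 1.27 ± 0.36 SE (adjusted p = 0.0402) in 4sU RNA and -0.42 ± 0.28 SE (adjusted p = 0.344, 0.0466 with the replicate block) in total RNA with limma. The call in total RNA with the block rests on 1 residual degree of freedom and was lost when median-of-ratios scaling was added. The 4sU call was lost with limma without any one of 3 libraries (adjusted p = 0.247 without 0 h replicate 2, 0.156 without 0 h replicate 1 and 0.121 without 4 h replicate 1).

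Pabpc1 binds the poly(A) tail and joins it to the cap-binding complex. Its RP, with the highest 4 h change of the 7, stood at 55.2 and 56.1 FPKM at 0 h, 95.3 at 0.5 h, 121 and 99.9 at 1 h, 269 at 2 h and 385 and 279.6 at 4 h, and every later value lay above both of 0 h. At 4 h against 1 h it was the 1 gene of the 7 called in RP, with 1.57 ± 0.23 SE (adjusted p = 0.0154) with limma, where 14.1% of genes were called (7.65% higher). The call was lost without any one of the 4 libraries (adjusted p from 0.0516 to 0.0929). With the block, Eef1b2 and Eef1g were called too (adjusted p = 0.0219 and 0.0419, 36.7% of genes called). The 4sU RNA of Pabpc1 stood at 22.1 and 29.1 FPKM at 0 h, 41.9 and 47.5 at 1 h, 46.7 at 2 h, 48.7 at 3 h and 51.6 and 71.9 at 4 h, and all later values lay above both of 0 h. Total RNA stood at 76.6 and 120.3 FPKM at 0 h, 122 at 1 h, 76.4 at 2 h and 74.5 and 100.0 at 4 h, where the 0 h pair nearly spanned the values of all later libraries. The change at 4 h was 2.54 ± 0.23 SE (adjusted p = 0.00442) in RP, 1.23 ± 0.23 SE (adjusted p = 0.0120) in 4sU RNA and -0.15 ± 0.31 SE (adjusted p = 0.777) in total RNA with limma. Without replicate 1 at 0 h, the 4sU change was no longer called with limma (adjusted p = 0.0711).

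Rack1 sits on the small ribosomal subunit and holds signalling proteins there. Its RP stood at 619 and 729.6 FPKM at 0 h, 1032 at 0.5 h, 1235 and 1285 at 1 h, 1747 at 2 h and 1828 and 1895 at 4 h, and each later time stood above the one before it in both replicates. The 4sU RNA stood at 75.7 and 62.8 FPKM at 0 h, 122 and 92.2 at 1 h, 170.2 at 2 h, 213 at 3 h and 264 and 172 at 4 h, where the later libraries lay above both of 0 h and replicate 1 at 4 h was the highest. Total RNA stood at 392 and 364 FPKM at 0 h, 152 at 1 h, 389 at 2 h and 469 and 358 at 4 h, so the 1 h library was far below all others while the 4 h pair spanned the 0 h pair. The change at 4 h was 1.47 ± 0.23 SE (adjusted p = 0.0110) in RP, 1.61 ± 0.30 SE (adjusted p = 0.0107) in 4sU RNA and 0.12 ± 0.27 SE (adjusted p = 0.810) in total RNA with limma. The RP call was lost with limma without 0 h replicate 1 or 4 h replicate 1 (adjusted p = 0.0608 and 0.0594), and the 4sU call without 0 h replicate 2 (adjusted p = 0.0757).

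The earliest readouts came from 1 library at each time and have no replicate check. At 0.5 h, RP of Eef1a1 was 3.06-fold, Eef1b2 2.42-fold, Eef2 2.15-fold, Pabpc1 1.73-fold, Rack1 1.67-fold, Eef1d 1.55-fold and Eef1g 1.30-fold its level at 0 h in replicate 1. These folds were above those of 85.2% to 99.4% of genes. With a 0.5 h label, 4sU RNA made over the same time was 1.45-fold its 0 h level for Pabpc1, 1.14-fold for Eef1b2 and Rack1, 1.01-fold for Eef1g, 0.96-fold for Eef1d, 0.94-fold for Eef1a1 and 0.88-fold for Eef2. These 4sU folds were above those of 31.0% (Eef2) to 95.8% (Pabpc1) of genes, with a median of 58.4% over the 7. So RP was higher at 0.5 h than at 0 h for all 7 genes, and short-label 4sU RNA for 4 of them. The share of all genes that were higher was not counted in either kind of library. In the fit over all RP libraries, where the 0.5 h library is assumed to vary like the replicated groups, 0 of 7 were called with limma, nor was any of 9312 genes (0%). At an unadjusted p below 0.05 stood 4 of the 7 and 743 genes, and with the block 0 of the 7 and 3 genes (0.0322%) were called.

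**Figure D2:**
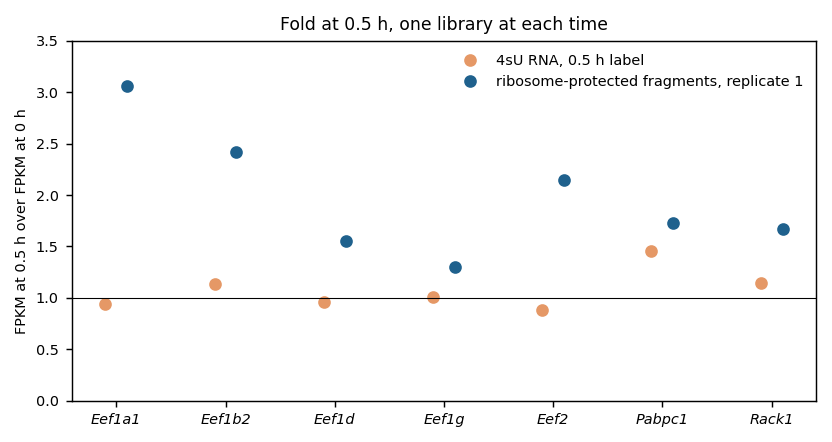
FPKM at 0.5 h over FPKM at 0 h for each gene, from the short-label 4sU pair (orange) and from RP replicate 1 (blue), 1 library at each time. The blue points lie between 1.30 and 3.06, and the orange points between 0.88 and 1.45, with the line at 1 marking no difference.

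At 1 h the order of the RP changes was Eef1a1 at 1.71, Eef1b2 at 1.52, Eef2 at 1.35, Eef1g at 1.09, Pabpc1 at 0.97, Rack1 at 0.91 and Eef1d at 0.51 on the log2 scale. For each of the 7, both libraries of 1 h lay above both of 0 h, and the share of all genes that did so was not counted. Within replicates 1 and 2, the rise of every one of the 7 was above that of at least 91.8% and 89.9% of genes. Neighbours in this order differed by less than the sum of their SEs, single values of which ran from 0.17 to 0.33. None of the 7 was called with limma (adjusted p from 0.164 to 0.529), where 0.14% of genes were called, although 6 of the 7 and 991 genes had an unadjusted p below 0.05. With the block, Eef1a1, Eef1b2, Eef2, Eef1g and Pabpc1 rose (adjusted p from 0.0222 to 0.0478), where 1.97% of genes were called (1.42% higher). The call of Pabpc1 was lost when median-of-ratios scaling was added (adjusted p = 0.0501). The 4sU changes at 1 h ran from 0.27 for Eef1d to 0.88 for Eef1b2. Of the 7, 0 were called in 4sU RNA with limma, where 0.183% of genes were, and 2 of the 7 and 1236 genes had an unadjusted p below 0.05. Pabpc1 and Eef1b2 rose with the block (adjusted p = 0.0189 and 0.0184), where 5.21% of genes were called higher.

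**Figure D3:**
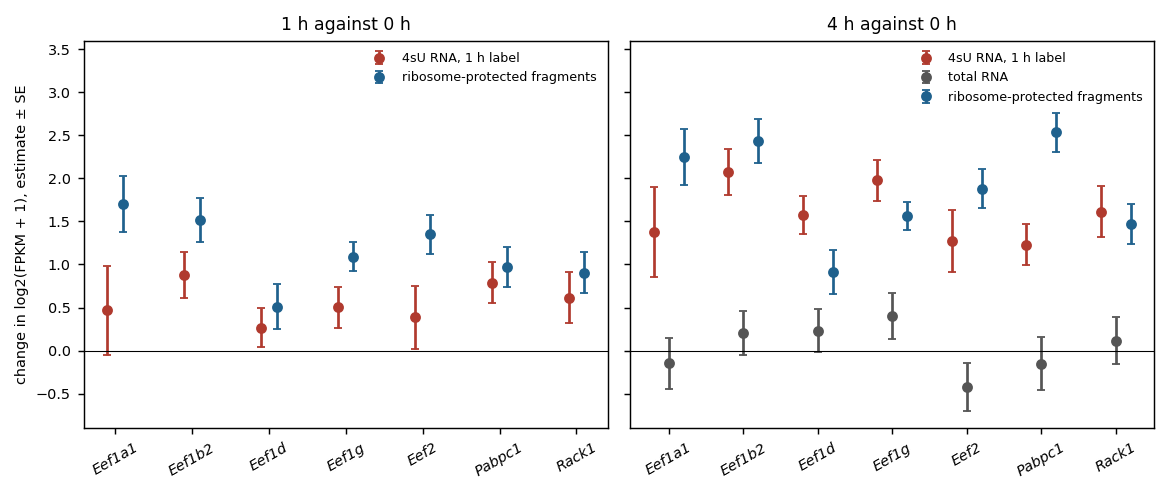
Change in log2(FPKM + 1) against 0 h with its SE from limma, at 1 h (left; 4sU RNA and RP) and at 4 h (right; 4sU RNA, total RNA and RP). At 4 h the total RNA points lie between -0.42 and 0.40, below the 4sU RNA and RP points of every gene.

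The times between were single libraries of replicate 1, assumed to vary like the replicated groups. In RP at 2 h, Pabpc1, Eef1a1, Eef1b2, Eef2 and Eef1g rose, by 2.25, 2.21, 2.19, 2.06 and 1.17 (limma, adjusted p from 0.0258 to 0.0402), where 4.93% of genes were called and 2.96% were called higher. Rack1 joined them with the block (1.43, adjusted p = 0.0132), where 9.53% were called higher, and Eef1d did not (0.33, adjusted p = 0.429). In 4sU RNA, Eef1b2 rose at 2 h, by 1.58 ± 0.33 SE (limma, adjusted p = 0.0457), where 7.56% of genes were called (3.87% higher). At 3 h Eef1b2, Eef1d, Eef1g and Rack1 rose, by 1.94, 1.64, 1.78 and 1.61 (limma, adjusted p from 0.0167 to 0.0315), where 20.1% were called (9.41% higher). With the block, 5 of the 7 rose at 2 h (all but Eef1a1 and Eef2) and 6 at 3 h (all but Eef1a1), where 31% of genes (13.3% higher) and 42.9% of genes (17.8% higher) were called. The 359 higher and 342 lower genes of 2 h became 413 and 253 after median-of-ratios scaling, and the 873 and 996 of 3 h became 1040 and 733. When either 0 h library was left out, 0 of the 7 were called at 2 h in RP or at 2 and 3 h in 4sU RNA with limma. Between 1 and 4 h, 4sU RNA of Eef1b2, Eef1d and Eef1g rose further, by 1.20, 1.31 and 1.48 (limma, adjusted p from 0.0106 to 0.0250), where 26.7% of genes were called, and with the block Eef2, Pabpc1 and Rack1 did too (54.1% called, 22% higher). The plain fit made 1 of these calls without 4 h replicate 1 and 0 without 1 h replicate 2.

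Total RNA of the 7 gave no call with limma at 1 h, where 0% of genes were called and 2 of the 7 and 1197 genes had an unadjusted p below 0.05. It gave none at 2 h either, where 1.02% of genes were called and 0 of the 7 and 1062 genes had an unadjusted p below 0.05. With the block it gave 0 of the 7 again, and 8.07% of genes. The 1 h library, of replicate 2, held Rack1 at 0.418-fold and Eef1g at 0.475-fold of the 0 h library of that replicate, lower than the others of the 7, which stood at 0.865- to 1.01-fold. The changes were -1.31 ± 0.33 SE (adjusted p = 0.177, 0.000725 with the replicate block) for Rack1 and -1.13 ± 0.33 SE (adjusted p = 0.196, 0.00850 with the replicate block) for Eef1g with limma, where 9.02% of genes were called lower with the block. The blocked estimates were -1.18 and -0.98 on 1 residual degree of freedom. The spread that limma borrows from all genes had a median weight of 86.0 degrees of freedom in that fit, against 4.84 without the block. The blocked p-values of total RNA thus rest almost wholly on that borrowed spread. With median-of-ratios scaling added, the call of Eef1g was lost (adjusted p = 0.0879) and that of Rack1 was not (adjusted p = 0.0346). The same genes stood at 389 and 168 FPKM in the 2 h library of replicate 1, near their 0 h levels of 392 and 168 FPKM. The 95% interval of the total RNA change at 4 h ran from -1.08 to 0.25 for Eef2 and from -0.25 to 1.05 for Eef1g.

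The ratio of RP to total RNA FPKM was then followed within each replicate number. The steps of the RP values matched the coding length of genes and those of total RNA, where they were resolved, the exon length, so the ratio is compared between times of a gene and not between genes (Eef1d, for example, has 6488 exon and 2037 coding bases). The ratio of Eef1a1 was 1.41 and 1.17 at 4 h, against 0.209 and 0.283 at 0 h, in replicates 1 and 2. For Eef2 it was 1.55 and 1.35 at 4 h, against 0.270 and 0.317 at 0 h. For Eef1b2 it was 4.29 and 4.02 at 4 h, against 0.774 and 1.00 at 0 h. Each of these genes thus had a ratio above its 0 h values in both replicates, and the share of all genes that did so was not counted. Pabpc1 stood at 5.17 and 2.80 at 4 h, against 0.721 and 0.467 at 0 h. Rack1 stood at 3.90 and 5.30 at 4 h, against 1.58 and 2.00 at 0 h. Eef1g stood at 0.556 and 0.755 at 4 h, against 0.272 and 0.301 at 0 h, and Eef1d at 6.69 and 7.98, against 3.75 and 5.54. Over all genes the median ratio was 2.63 and 2.89 at 4 h, against 2.57 and 2.84 at 0 h.

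**Figure D4:**
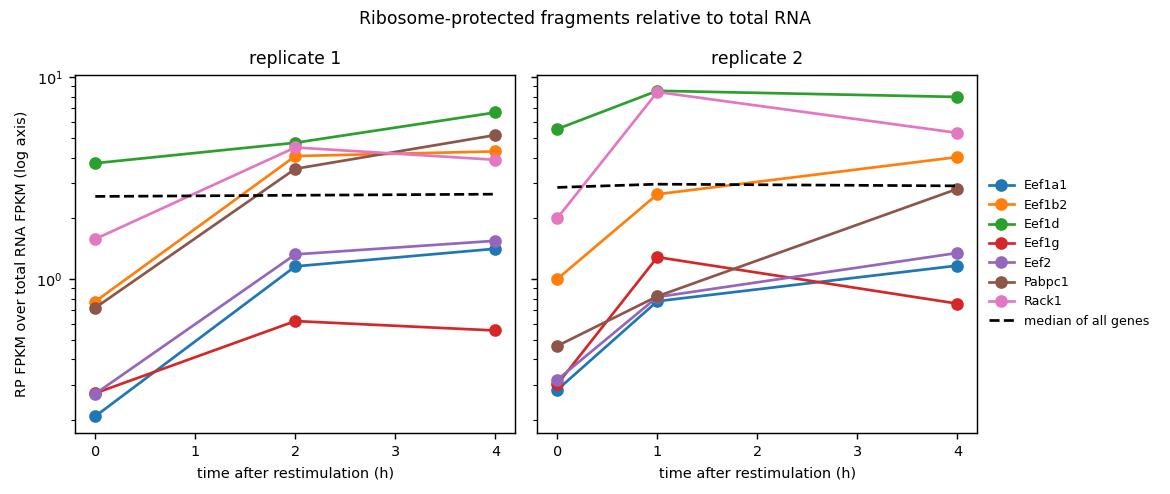
RP FPKM over total RNA FPKM (log axis) by hours after restimulation, in replicate 1 (left) and replicate 2 (right), with the median of all genes dashed. All 7 lines are higher at 4 h than at 0 h in both replicates, and the dashed line is at 2.63 and 2.89 at 4 h, against 2.57 and 2.84 at 0 h. The share of all genes that are higher in both replicates was not counted.

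Tested as the difference between the RP and the total RNA change at 4 h, the values were 2.69 ± 0.40 SE for Pabpc1, 2.40 ± 0.49 for Eef1a1, 2.30 ± 0.36 for Eef2, 2.23 ± 0.35 for Eef1b2, 1.35 ± 0.35 for Rack1, 1.16 ± 0.29 for Eef1g and 0.68 ± 0.36 for Eef1d on the log2 scale. Their 95% intervals lay above 0 for 6 of the 7, and that of Eef1d ran from -0.13 to 1.50. None passed adjustment over 9021 genes with limma (adjusted p from 0.244 to 1.00), and neither did any other gene (0%), while 6 of the 7 and 241 genes had an unadjusted p below 0.05. With the block 3 genes passed, 2 of them higher (0.0222%), and Pabpc1 was 1 of these (adjusted p = 0.0230). At 1 h and at 2 h the differences ran from 0.63 (Pabpc1) to 2.22 (Eef1g) and from 0.06 (Eef1d) to 2.58 (Pabpc1), with 0 of 7 called by limma with or without the block (0% and 0.0333% of genes called without it, 0% and 0.0776% with it). At an unadjusted p below 0.05 stood 5 of the 7 and 776 genes at 1 h, and 6 of the 7 and 397 genes at 2 h. The 1 h values use the total RNA library in which Rack1 and Eef1g were low.

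The difference between the 4sU and the total RNA change at 4 h was narrower across the genes, from 1.35 for Eef1d to 1.88 for Eef1b2, and its 95% interval lay above 0 for all 7. Of the 7, 0 passed with limma over 9033 genes (adjusted p from 0.374 to 0.809), nor did any gene (0%), while all 7 and 526 genes had an unadjusted p below 0.05. With the block all but Eef1a1 passed (adjusted p from 0.0274 to 0.0375), where 1.13% of genes were called higher. The RP change minus the 4sU change at 4 h ran from -0.66 (Eef1d) to 1.31 (Pabpc1), with 0 of 7 and no gene called by limma (0%), 1 of 7 and 633 genes at an unadjusted p below 0.05, and 0 of 7 and 24 genes called with the block (0.261%). The 95% interval lay above 0 for Pabpc1 (0.55 to 2.06) and included 0 for the others. At 1 h this difference was positive for all 7, from 0.18 (Pabpc1) to 1.24 (Eef1a1), again with 0 of 7 and no gene called by either fit (0%), and with 1 of the 7 and 227 genes at an unadjusted p below 0.05.

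As a share of all FPKM in a library, the 7 genes held 1.10% and 0.941% of RP at 4 h, against 0.196% and 0.241% at 0 h, in replicates 1 and 2. In 4sU RNA they held 1.30% and 1.12% at 4 h, against 0.461% and 0.444% at 0 h. In total RNA the shares were 2.47% and 2.93% at 4 h, against 2.77% and 3.14% at 0 h. The shares at 4 h and at 0 h did not overlap in RP and 4sU RNA and overlapped in total RNA, where the 4 h share was the lower one within each replicate number. Eef1a1 and Eef2 have the highest total RNA FPKM of the 7 and so weigh most in this sum, and both were lower at 4 h. Taken singly, 4 of the 7 in replicate 1 and 3 in replicate 2 stood above their 0 h level in total RNA.

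The cytosolic ribosomal proteins, the largest group of TOP mRNAs, were set beside the 7 genes. At 4 h, 46 of 47 rose in 4sU RNA with a median of 1.52, 24 of 46 rose in RP with a median of 1.49, and 2 of 47 rose in total RNA with a median of 0.03 (limma). With the block these counts were 47, 37 and 6. Of all genes, 14.4%, 12.1% and 6.47% were called higher in 4sU RNA, RP and total RNA with limma, and 23.3%, 21.3% and 16.6% with the block. The total RNA counts of the ribosomal proteins lay below these shares. The 2 called in total RNA with limma were Rpl26 (1.58) and Rpl30 (1.14), named after their values were seen. Rpl12 rose by 2.50 in 4sU RNA and 2.22 in RP, and Rplp2, a protein of the ribosomal stalk where elongation factors bind, by 2.05 in 4sU RNA. Of 14 other TOP mRNAs in the table, 12 rose in 4sU RNA (median 0.96), 6 in RP (median 1.21) and 0 in total RNA (median 0.10) with limma. With the block 11 rose in RP, and Pabpc4 and Eif3a in total RNA, where 16.6% of all genes were called higher. Pabpc4, a cytoplasmic relative of Pabpc1, rose by 2.05 ± 0.15 SE in 4sU RNA (limma, adjusted p = 0.00183) and by 2.12 ± 0.29 SE in RP (adjusted p = 0.00762). Npm1, a nucleolar chaperone of ribosome assembly, rose by 2.35 in 4sU RNA and Eif3f, a subunit of initiation factor eIF3, by 1.78 in RP. These lists were chosen with results of these data known, and no difference between them and the 7 genes was tested.

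**Figure D5:**
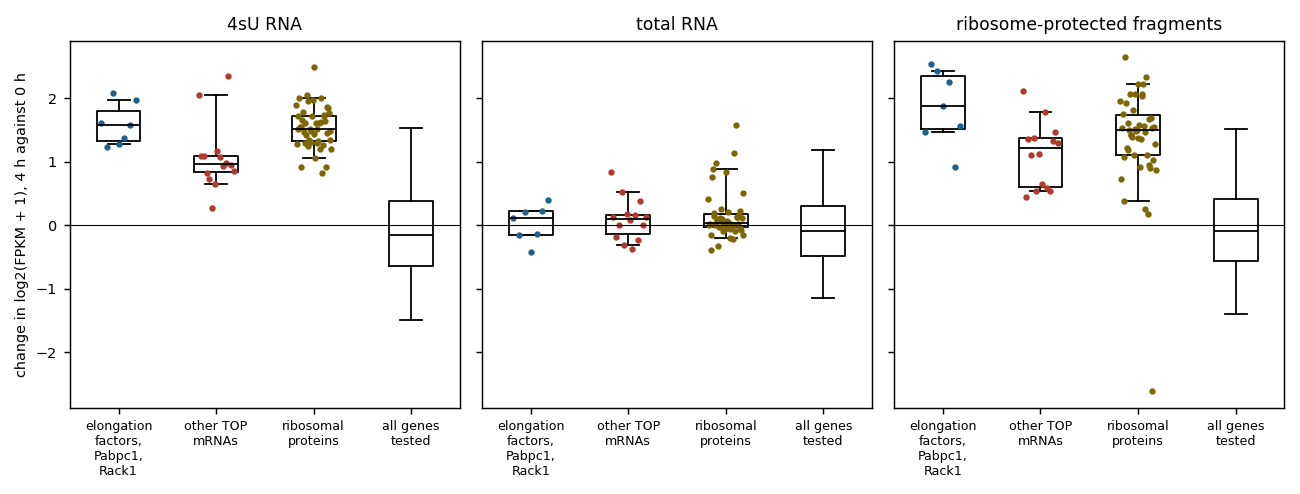
Change in log2(FPKM + 1) at 4 h against 0 h in 4sU RNA, total RNA and RP, with a point for each gene of the 3 lists and boxes from the lower to the upper quartile with whiskers at the 5th and 95th percentiles. The medians of the 7 genes (1.58, 0.12 and 1.88) lie beside those of all genes tested (-0.16, -0.10 and -0.10), and 1 ribosomal protein lies far below the others in RP, at -2.61.

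Of all genes in 4sU RNA at 4 h, limma called 14.4% up and 18.9% down, or 23.3% and 35.4% with the block. In RP the shares were 12.1% and 12.9%, or 21.3% and 26.7% with the block. In total RNA they were 6.47% and 7.02%, or 16.6% and 23.3% with the block. The counts of the smaller lists that follow are to be read beside these shares. Of the elongation and release partners, 9 of 18 rose in 4sU RNA, 7 of 19 in RP and 3 of 19 in total RNA at 4 h, and none fell (limma). The last count was 9 with the block. Eef1e1, a small eEF1 relative of the aminoacyl-tRNA synthetase complex, rose by 2.46 ± 0.28 SE in 4sU RNA (adjusted p = 0.00327), 3.38 ± 0.26 SE in RP (adjusted p = 0.00430) and 3.02 ± 0.25 SE in total RNA (adjusted p = 0.00465) with limma. Eif5a, which helps the ribosome through difficult peptide bonds, rose by 2.41 in 4sU RNA, and its RP value was 0.59 (adjusted p = 0.219 with limma). Dph1, an enzyme of the diphthamide modification of eEF2, rose by 1.61 in RP. The eEF2 kinase Eef2k, which inhibits eEF2, had values of 0.35 in 4sU RNA and 0.03 in RP (adjusted p = 0.524 and 0.977 with limma) and is named after these were seen. Of 3 mitochondrial elongation factors in the table, Tsfm rose in RP, by 0.91 (limma), and with the block Gfm1 and Tsfm rose in 4sU RNA and in RP and Gfm1 in total RNA.

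Of 12 poly(A)-binding partners, 4 rose and 4 fell in 4sU RNA, 4 rose and 3 fell in RP, and 2 rose and 3 fell in total RNA at 4 h (limma). With the block 6 rose in 4sU RNA and 5 in total RNA, and 4 fell in 4sU RNA, where 35.4% of all genes were then called lower. Larp4, a poly(A)-tail binding protein, rose by 1.75 in 4sU RNA, 2.29 in RP and 2.15 in total RNA. Among those that fell, Tob1, which recruits deadenylases, fell by 1.71 in 4sU RNA, 1.48 in RP and 1.47 in total RNA. Paip2, an inhibitor of Pabpc1, fell by 1.59 in 4sU RNA and 1.39 in RP. Both were chosen after their values were seen. Of 8 nascent chain partners, which bind new proteins at the ribosome, 6 rose in 4sU RNA, 4 in RP and 1 (Metap1) in total RNA with limma, and 5 in total RNA with the block, and the chaperones Hspa8 and Dnajc2 rose by 1.53 and 1.23 in 4sU RNA. In RP, Metap1, which removes the first methionine of new proteins, rose by 1.45 and Dnajc2 by 1.26.

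Of 15 regulators of TOP mRNAs, 4 rose and 1 fell in 4sU RNA, 3 rose in RP and 2 rose in total RNA at 4 h (limma). Over all genes 14.4%, 12.1% and 6.47% were called higher in 4sU RNA, RP and total RNA, and no excess over these shares was tested. With the block 5 rose and 2 fell in RP, 3 rose and 2 fell in total RNA, and 3 fell in 4sU RNA. Larp1, the cap-binding repressor and stabiliser of TOP mRNAs, rose by 2.03 ± 0.22 SE in 4sU RNA (adjusted p = 0.00320), 1.65 ± 0.22 SE in RP (adjusted p = 0.00748) and 1.43 ± 0.22 SE in total RNA (adjusted p = 0.0135) with limma. Its relative Larp1b rose by 2.18 in 4sU RNA, 2.31 in RP and 1.87 in total RNA. The mTORC1 subunits Mtor and Rptor had 4sU values of 0.23 and -0.21 (adjusted p = 0.330 and 0.374 with limma), named here after their values were seen.

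Across the 22 libraries without the short label, 7 of the 8 genes whose log2 level, after subtracting the mean of its kind of library, ran most like the mean of the 7 were Rps3 (Pearson r = 0.966), Rpl4 (0.966), Rpl8 (0.955), Rps9 (0.952), Eif4b (0.946), Eif3f (0.940) and Cct2 (0.937), among 3756 genes of at least 10 FPKM on average in each kind. Ribosomal proteins made up 26 of the 100 most alike and had a median r of 0.863, beside a median of -0.02 over all ranked genes. Of the 7 themselves, Eef1b2 ran closest to their mean (r = 0.992) and Pabpc1 least close (0.825). These values describe libraries that share times and replicate numbers, and the mean includes each of the 7.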

How the data were processed

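Newly transcribed (4sU), total and ribosome-protected RNA was measured in 24 libraries of 16 groups, and all comparisons are within the deposited table. The deposited values are FPKM, which the authors made from reads counted by featureCounts (Subread 1.4.6-p3, build GRCm38), per the submitters' processing notes. Nothing used here names the aligner, annotation, gene length or strand setting. Symbols came from GENCODE M21 and matched 9412 of 9420 identifiers. For each kind of library, log2(FPKM + 1) was fitted by limma 3.58.1 (R 4.3.3), with all its times, a variance trend and genes of at least 1 FPKM on average; p-values were adjusted by Benjamini and Hochberg over all genes tested, and fold changes of low genes are understated by the pseudocount. Differences between kinds were interaction terms. Residual degrees of freedom were 3 for 4sU RNA and RP, 2 for total RNA and 5 or 6 for the interactions. With the block they were 2, 1 and 3 or 4. The script was tested on simulated data.

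Libraries of the same replicate number deviated together from their group means in all 28 pairs of the 8 replicated groups (r from 0.308 to 0.792 over 8978 genes), so the numbers were taken to pair the samples on the evidence of these data, and the fit with the number as a block is given where it changes a call. The alternatives were other pseudocounts, no filter, median-of-ratios scaling, the block, and each library left out. The 7 genes, the lists and the naming rule (all members, the 2 called genes of each list with the largest change in 4sU RNA at 4 h and in RP at 1 and 4 h, and the 8 genes most alike) were chosen with earlier results of these data known. Depth was resolved in 12 libraries, and no counting intervals are given. A few items that these rules name are not reported here.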

Additional observations from a re-analysis of the deposited data

How the results depend on the processing

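Pseudocounts of 0.1 and 5, no filter, and median-of-ratios scaling left the count of the 7 genes called within 1.5 times in every comparison, and no called direction of the 7 was reversed under the alternatives run. The replicate block alone moved that count to 2 in 4sU RNA at 1 h (from 0), 5 at 2 h (from 1) and 6 at 4 h against 1 h (from 3). In RP it gave 5 at 1 h (from 0) and 3 at 4 h against 1 h (from 1), and in total RNA 2 at 1 h and 1 at 4 h (from 0). For differences between kinds at 4 h, it gave 1 for RP minus total RNA and 6 for 4sU minus total RNA (from 0). The block with median-of-ratios scaling gave 2, 5 and 7 in 4sU RNA, 4 and 3 in RP, 1 in total RNA at 1 h, and 1 and 6 for the differences. Leaving out single libraries gave 4 to 6 calls at 4 h in 4sU RNA and in RP, 0 to 4 in 4sU RNA at 4 h against 1 h, and 0 in RP at 4 h against 1 h (from 1). It gave 0 in 4sU RNA at 2 h (from 1) and 3 h (from 4) and in RP at 2 h (from 5). Where 1 library was left on a side, its spread was taken from the replicated groups, and the cause of these moves was not tested.

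Over all genes, the block raised the calls to 5445 in 4sU RNA, 3618 in total RNA and 4474 in RP at 4 h, in place of 3089, 1224 and 2326. Total RNA had 6 libraries, 2 residual degrees of freedom, 1 library each at 1 and 2 h, and the lowest resolved depth of 4.87 M reads.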
